A study of Rattus norvegicus with 32 samples.

Results

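Metyrapone (MT) was compared with carbenoxolone (CB) in injured rats 4 h after fluid percussion traumatic brain injury (TBI). The comparison took every sample whose label names either drug with TBI at 4 h, which were 2 pooled RNA samples of each drug. Each was hybridized to duplicate CodeLink rat arrays, so the comparison rests on 8 of the 32 arrays and 4 of the 16 pooled samples of the series. The RNA came from pyramidal neurons of the CA3 field of the hippocampus, laser-captured from adult male Sprague-Dawley rats on the injured side. Only neurons that Fluoro-Jade, a stain for degenerating neurons, had left unstained were captured, and the RNA was amplified in 2 rounds before labelling. TBI+MT rats had 100 mg/kg metyrapone and TBI+CB rats had 30 mg/kg carbenoxolone, both under the skin before the injury. The doses differ, so the drug and its dose cannot be told apart. Sham and TBI rats at 4 h, which serve here only as levels to read the drug groups against, had saline per the methods, whereas the labels call the 4 h sham rats untreated. The methods and the labels also give different intervals between drug and injury and different numbers of rats per pool, and the labels count the time from treatment. All 4 drug samples and the second TBI sample are on slides of 1 run of slide numbers, whereas both sham samples and the first TBI sample at 4 h are on another, so that run and group cannot be told apart where drug levels are read against sham.

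Metyrapone blocks the last step of glucocorticoid synthesis in the adrenal cortex. Carbenoxolone inhibits the 11β-hydroxysteroid dehydrogenases, which convert active and inactive glucocorticoids into each other inside cells, and it also closes gap junctions. The authors state that metyrapone, too, inhibits the form of this enzyme that yields active glucocorticoid. Glucocorticoids act through the receptor encoded by Nr3c1, which drives genes such as Fkbp5 and Sgk1. Depolarized or injured neurons switch on a different set within minutes, the immediate early genes, whose first products are transcription factors of the AP-1, Egr and Nr4a families, followed by effectors such as Arc and Ptgs2. Many promoters of such genes hold a cyclic AMP response element, the site to which CREB binds.

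Levels are spot intensities divided by the median of the array, so a level of 10 is 10 times the array's median probe, and levels of different probes are not set against each other. Values under 0.1 were set to 0.1, the duplicate arrays were averaged on the log2 scale, and differences are log2 of TBI+MT over TBI+CB with the standard error (SE) of the limma fit. With n = 2 pooled samples per group, p-values measure only the spread between pooled samples, and this number limits the precision. Probes entered the fit where 1 group or more had all 4 arrays over background, leaving 17617 probes for 8291 genes. Duplicate arrays correlated at 0.968 to 0.997. The second TBI+MT sample was brighter than the others: 66.0 and 63.2% of its probes were above background, against 45.5 and 45.7% in the first and 41.4 to 51.0% on the TBI+CB arrays.

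No probe differed between the drugs at an adjusted p under 0.05 (limma, 0% of 17617 probes), and 548 had an unadjusted p under 0.05. Of these, 427 were higher and 121 lower in TBI+MT. The smallest adjusted p was 0.468, that of Bcl11b. An exact permutation test of 2 samples against 2 cannot go below p = 0.333 (two-sided). As a description, the 4 arrays of TBI+MT all lay above the 4 of TBI+CB with means over 2-fold apart at 967 probes, 5.49% of those tested, and all lay below them at 571 probes, 3.24%. In 374 of the 967 the TBI+CB arrays were all at background, so that only a lower bound of the fold exists, whereas this was so for TBI+MT in 13 of the 571. The bound itself was over 2-fold in 185 of the 374 and in 10 of the 13. In the others a 2-fold difference is not shown. Of the 11728 probes above background on all 8 arrays, 235 were over 2-fold higher and 300 over 2-fold lower with arrays apart. Among genes, 211 (2.54%) were over 2-fold higher and 257 (3.10%) over 2-fold lower with arrays apart. Where all 8 arrays were above background, the counts were 64 genes higher and 147 lower. Between single samples, the SD of the log2 difference over probes was 1.07 for the 2 TBI+MT samples and 0.88 for the 2 TBI+CB samples, and 0.87 to 1.17 for the 4 pairs of a TBI+MT with a TBI+CB sample. Over 2-fold apart were 6881 probes between the TBI+MT samples and 2662 between the TBI+CB samples. The means of the drugs, which average 2 samples each and so vary less than single samples, were over 2-fold apart at 2391.

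The median difference over all probes was -0.20, and -0.08 after quantile normalization, so medians of gene lists are given less that of all probes. Without regard to size, 69.4% of genes were lower in TBI+MT. This share was 45.4% without the first TBI+MT sample and 73.2% without the second, so it rests on the first TBI+MT sample.

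Genes of the early transcription factors were mostly lower in TBI+MT than in TBI+CB. Of 25 listed AP-1, Egr, Nr4a, Klf and related genes, 22 had a probe and 17 were measured. Of these, 14 were lower in TBI+MT, where 69.4% of all genes were, and 3 higher. The arrays of the drugs were apart in 8, all lower in TBI+MT, where 14.3% of all genes were lower and 5.63% higher in this way. In 4 of the 8, namely Fos, Egr1, Nr4a1 and Klf6, the difference was over 2-fold, where 3.10% of all genes were. This count of 4 was 1 without the first TBI+MT sample and 8 without the second. Over all 8291 genes the count of 257 became 306 and 1894 in the same way. The median of the 17 lay 0.52 below that of all probes. None passed the test, and all 17 had an adjusted p of 0.999 (limma). Of the 8 members not measured, Batf, Egr2, Egr3, Klf2 and Npas4 had a probe that was not kept, and Fosb, Fosl2 and Csrnp1 had no probe under that symbol.

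The promoters of 3 genes that were low in TBI+MT are shown because they hold the letters of the cyclic AMP response element. They run from 250 bases before to 50 after the start of transcription (RefSeq, GRCr8), 5′ to 3′ on the strand of the gene. Capitals mark TGACGTCA, the full element, and TGACG or CGTCA, its core on either strand.
Dusp1, chr10:17184603-17184902, plus strand: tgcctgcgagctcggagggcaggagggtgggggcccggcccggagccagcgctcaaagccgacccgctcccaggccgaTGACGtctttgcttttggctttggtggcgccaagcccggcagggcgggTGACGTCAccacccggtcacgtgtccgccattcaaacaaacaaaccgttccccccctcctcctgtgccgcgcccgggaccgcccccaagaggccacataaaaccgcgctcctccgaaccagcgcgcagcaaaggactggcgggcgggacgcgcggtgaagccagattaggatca
Egr4, chr4:119607768-119608067, minus strand: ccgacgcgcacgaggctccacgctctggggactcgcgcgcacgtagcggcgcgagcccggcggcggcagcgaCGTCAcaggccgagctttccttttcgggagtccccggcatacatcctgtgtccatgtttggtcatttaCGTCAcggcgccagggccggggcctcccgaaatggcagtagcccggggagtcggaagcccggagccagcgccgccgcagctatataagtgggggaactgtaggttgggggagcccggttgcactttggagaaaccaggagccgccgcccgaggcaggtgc
Nr4a1, chr7:134259888-134260187, plus strand: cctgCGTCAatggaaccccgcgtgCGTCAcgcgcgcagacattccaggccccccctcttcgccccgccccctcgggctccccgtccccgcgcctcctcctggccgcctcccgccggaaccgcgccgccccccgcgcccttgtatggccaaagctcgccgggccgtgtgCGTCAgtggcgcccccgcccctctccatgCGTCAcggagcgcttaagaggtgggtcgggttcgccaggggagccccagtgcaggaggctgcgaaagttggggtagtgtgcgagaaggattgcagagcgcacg
Dusp1 holds 1 full element and 1 further core, Egr4 holds 2 cores and Nr4a1 holds 4. Of the 17 measured early genes 12 had a promoter entry, and 9 of these (75%) held TGACG or CGTCA, as did 8 of 11 activity-regulated effectors (72.7%), 8 of 16 glucocorticoid-induced genes (50%) and 21.2% of all 33469 promoters. The full TGACGTCA was in 2 of the 12 (Ier2 and Jund), in 4 of the 11 effectors (Btg2, Dusp1, Scg2 and Vgf), in 1 of the 16 and in 1.83% of all promoters. A CArG box, the site of serum response factor, was in Egr1, Klf6 and Srf, and in 1.64% of all promoters. The AP-1 letters TGANTCA were in 0 of the 12, in 0 of the 11, in 2 of the 16 (12.5%) and in 7.33% of all. The palindrome of the glucocorticoid response element was in 5 promoters of all and in none of these lists. Strand does not matter for the palindromes, the full element includes both cores, and a match of letters is not a binding site. The lists count genes, whereas the background counts promoter entries, including those of genes not measured here. The 9 early genes with a core include Fosl1 and Srf, which were higher in TBI+MT. Whether the letters go with the difference between the drugs was not tested. Atf3, Fos, Jun, Klf10, Nr4a3, Arc, Nrn1 and Cebpd are named without a promoter.

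Fos encodes the AP-1 partner that is the classic marker of recently active neurons. Its level was 8.205 and 14.0 in the TBI+MT samples and 51.4 and 60.9 in the TBI+CB samples. The drug groups did not overlap, with a difference of -2.38 (SE 1.05). The TBI samples, at 37.1 and 25.9, lay between them, and the sham samples were at 1.83 and 12.99. The second Fos probe gave the same order, at 2.22 and 2.05 against 4.12 and 5.61. Leaving out 1 sample at a time kept the difference between -2.77 and -2.001, so it was over 2-fold in each case. Atf3, a stress-induced member of the family, was at 5.15 and 5.47 in TBI+MT and at 10.2 and 7.46 in TBI+CB. Jun, the main partner of Fos, was at 5.44 and 10.2 against 9.004 and 6.96. The Jun values of the drugs overlapped, and their mean difference was -0.09 (SE 0.57) where TBI was at 13.8 and 12.5. Junb (-0.36), Jund (-0.54) and Fosl1 (0.23), further AP-1 subunits, did not have their arrays apart either.

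**Figure D1:**
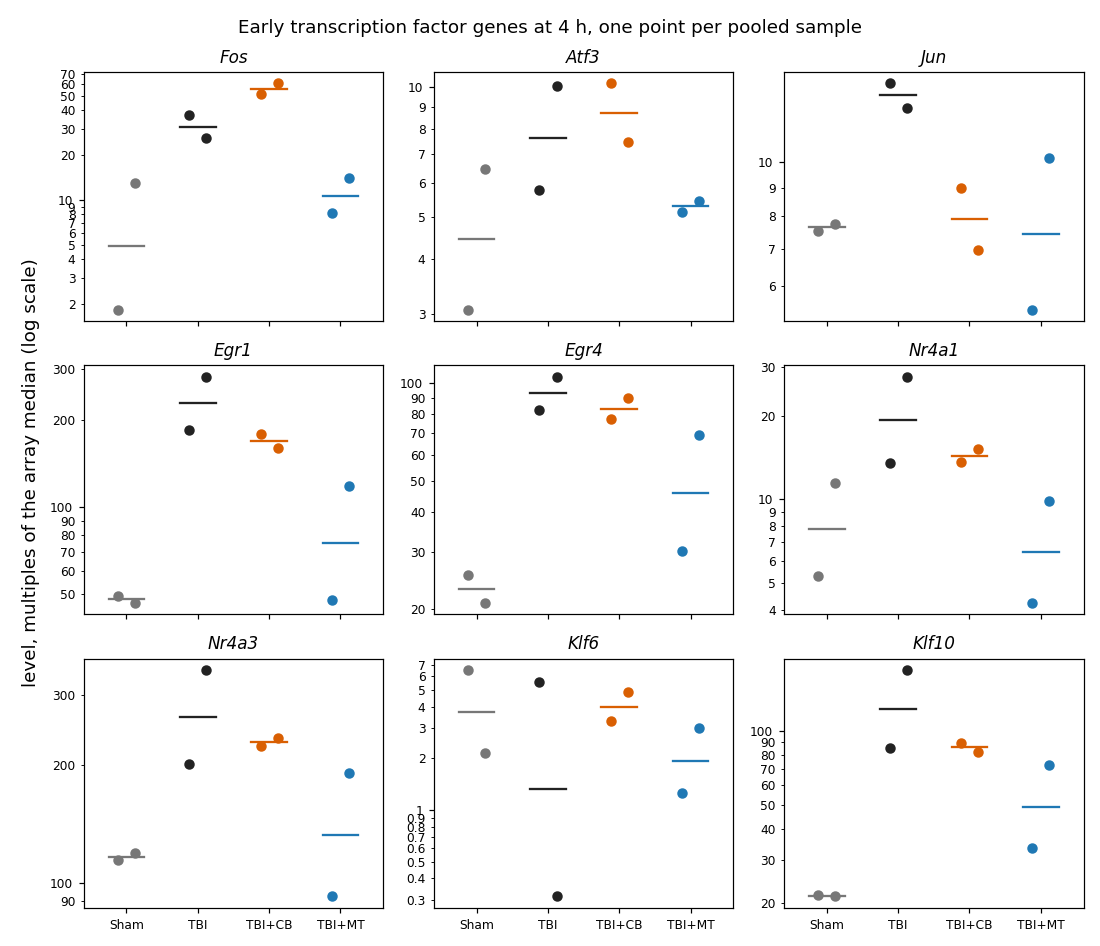
Levels of 9 early transcription factor genes in the 4 groups at 4 h (log axes, multiples of the array median, a separate scale for each gene), with 1 point per pooled sample and a line at the geometric mean of the 2. The TBI+MT points lie below both TBI+CB points in every panel except Jun, and the second TBI+MT sample lies nearer to TBI+CB than the first in each of the others except Atf3, where both are close together.

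Egr1, a zinc finger factor induced by synaptic activity, was at 47.9 and 119 in TBI+MT, 179 and 160 in TBI+CB, 185 and 283 in TBI and 49.4 and 46.6 in sham. The first TBI+MT sample was at the level of sham, the second between sham and TBI+CB. The difference of the drugs was -1.17 (SE 0.98), and -0.51 without the first TBI+MT sample. Egr4, of the same family, was at 30.3 and 69.4 against 77.3 and 89.9, with TBI at 82.5 and 105 and sham at 25.6 and 20.9. Its difference, -0.86 (SE 0.63), was -0.27 without the first TBI+MT sample. Both Egr genes thus had a drug difference of less than 2-fold when read from the second TBI+MT sample alone.

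The Nr4a genes encode orphan nuclear receptors that are induced quickly after stimulation. Nr4a1 was at 4.22 and 9.85 in TBI+MT and at 13.6 and 15.1 in TBI+CB, with TBI at 13.5 and 27.6 and sham at 5.28 and 11.5. The difference was -1.15 (SE 0.90), and -0.54 without the first TBI+MT sample. Nr4a3 was at 92.2 and 190 against 223 and 233, a difference of -0.78 (SE 0.68). Nr4a2 was at 21.2 and 12.9 against 26.6 and 18.8, so its groups overlapped, and its dimmer probe went the other way by 1.39. For this gene no direction can be given.

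Among the Klf genes, Klf10, an early gene induced by TGF-beta, was at 33.5 and 72.3 in TBI+MT and 89.5 and 81.8 in TBI+CB, where sham was at 21.6 and 21.3. Its second, dimmer probe differed by 0.08. Klf6 was at 1.26 and 3.00 against 3.30 and 4.86, but its TBI samples were at 5.57 and 0.314, the widest spread of these genes. Klf4 stood out on the other side, with 17.6 in the first TBI+MT sample and 2.95 in the second, against 2.92 and 3.22 in TBI+CB. Its difference of 1.23 (SE 0.89) rests on 1 sample and was -0.06 without it. Srf, Ier2 and Ier5 gave 0.18, -0.32 and -0.84, with overlapping samples. Without the first TBI+MT sample, 14 of the 17 early genes were still lower in TBI+MT, but only Fos remained both apart and over 2-fold. Without the second, 14 were lower and 8 of them apart by over 2-fold. Of all genes 45.4% were lower without the first and 73.2% without the second.

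Activity-regulated effectors, the genes that these factors and CREB switch on, showed the lowest median of the 32 lists, 0.69 below that of all probes. Of 26 listed genes 25 had a probe and 13 were measured. All 13 were lower in TBI+MT, 9 with the arrays apart and 4 of these over 2-fold, where the shares of all genes were 69.4, 14.3 and 3.10%. The 4 became 2 without the first TBI+MT sample and 9 without the second, where 257 of all 8291 genes became 306 and 1894. Ptgs2, the inducible cyclooxygenase, was at 12.4 and 37.0 in TBI+MT and at 55.2 and 51.9 in TBI+CB, with sham at 9.87 and 12.5. Its difference was -1.32 (SE 0.81), and -0.53 without the first TBI+MT sample. Dusp1, a phosphatase that ends MAP kinase signaling and whose promoter is shown above, was at 0.910 and 1.30 against 2.57 and 3.21. That difference of -1.40 (SE 0.91) stayed between -1.66 and -1.15 when samples were left out. Sik1, a kinase that restrains CREB coactivators, was at 0.536 and 0.342 against 2.07 and 1.07, and was above background on 1 of the 4 TBI+MT arrays.

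The other members named here were chosen after their values were seen. Arc, a synaptic regulator that marks active neurons, was at 8.499 and 26.5 in TBI+MT and 28.7 and 29.6 in TBI+CB. Homer1, a postsynaptic scaffold, was at 36.3 and 85.3 against 107 and 99.3, and Rgs2, a regulator of G protein signaling, at 24.1 and 78.6 against 103 and 93.7. In all 3 the second TBI+MT sample lay just below TBI+CB, with differences of -0.14, -0.27 and -0.32 when the first was left out. Nrn1, the secreted neurite factor neuritin, was at 118 and 147 against 239 and 200. Without the first TBI+MT sample 11 of the 13 effectors were lower, and without the second 12, where 45.4 and 73.2% of all genes were.

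**Figure D2:**
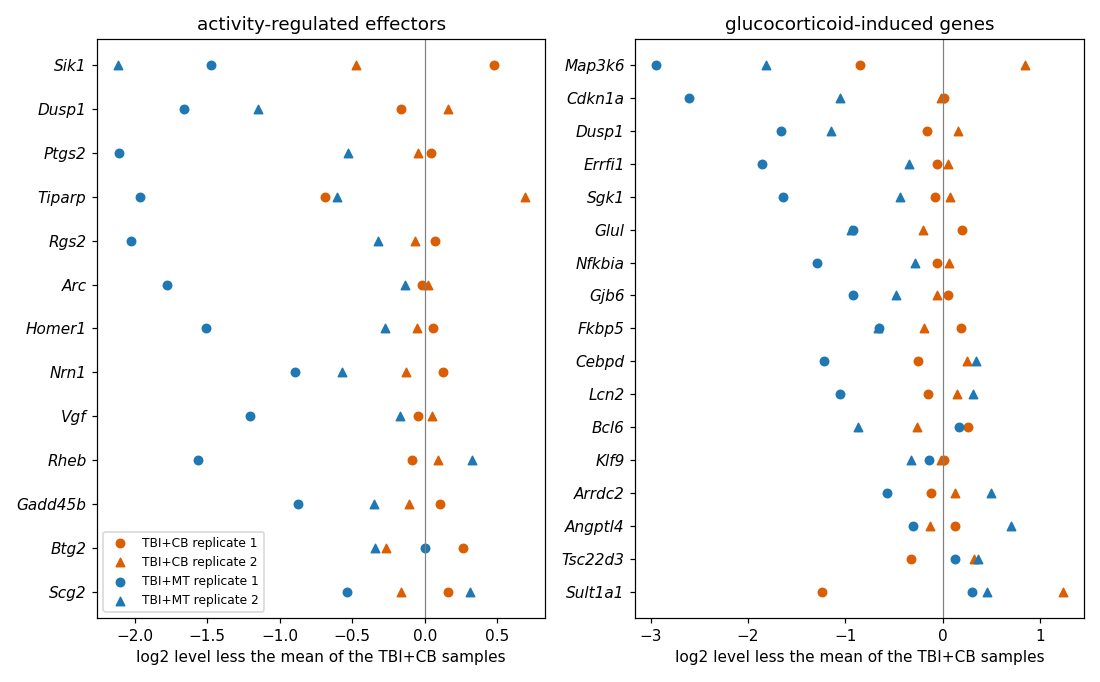
Activity-regulated effectors (left) and glucocorticoid-induced genes (right) in each drug sample at 4 h, as log2 level less the mean of the 2 TBI+CB samples; circles are first and triangles second replicates. Most TBI+MT points lie left of both TBI+CB points, the first replicate usually farther than the second, while Glul and Fkbp5 are about as low in both and Sik1 is lower in the second.

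Glucocorticoid-induced genes were lower in TBI+MT in 14 of 17 measured members of a list of 25, of which 22 had a probe. Arrays were apart in 10, all lower in TBI+MT, and over 2-fold in 5, where 69.4% of all genes were lower, 14.3% with arrays apart and 3.10% over 2-fold as well. Without the first TBI+MT sample 11 of the 17 were lower and 3 over 2-fold apart, and without the second 8 were over 2-fold apart. Of all 8291 genes, 45.4% were lower without the first. Those over 2-fold lower with arrays apart were 306 without the first and 1894 without the second, against 257 with all samples. The list median lay 0.46 below that of all probes. Fkbp5, a chaperone of the glucocorticoid receptor and one of its best-known targets, was at 113 and 112 in TBI+MT and 203 and 156 in TBI+CB. Its samples did not overlap, with a difference of -0.66 (SE 0.61), and sham, at 212 and 196, was at the level of TBI+CB or above. Cdkn1a, the cell cycle inhibitor p21, was at 5.34 and 15.7 against 32.8 and 32.2 (-1.83, SE 0.99). Map3k6, a stress kinase, was at 1.80 and 3.94 against 7.72 and 25.0 (-2.38, SE 1.53). Glul, glutamine synthetase, was at 156 and 154 against 338 and 257 (-0.93, SE 0.59).

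Sgk1, a kinase induced by corticosteroids, was at 10.4 and 23.9 in TBI+MT and 30.7 and 34.1 in TBI+CB; this gene, Errfi1 and Nfkbia were picked after their values were seen. Errfi1, a feedback inhibitor of the EGF receptor, was at 36.3 and 104 against 126 and 137, and Nfkbia, the inhibitor of NF-kappaB, at 8.41 and 16.8 against 19.7 and 21.5. Tsc22d3, a further classic target, did not share this order, at 2.28 and 2.69 against 1.66 and 2.61. The list shares Dusp1 with the effectors, and Cdkn1a, Nfkbia and Sgk1 also respond to injury without glucocorticoids. Glul and Gjb6 mark astrocytes. All 13 measured astrocyte markers were lower in TBI+MT, 6 with arrays apart, against 69.4 and 14.3% of all genes, and their summed level was 356 and 470 in TBI+MT against 738 and 635 in TBI+CB. Slc1a3, the astrocyte glutamate transporter, was at 62.9 and 120 against 152 and 141. The part of this difference in the lists above was not tested, and in pooled RNA fewer cells of a type and less RNA per cell cannot be told apart.

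Of the steroid receptors and enzymes, 11 were measured out of 15 with a probe. Nr3c1, the glucocorticoid receptor, was the 1 member with arrays apart on the higher side, at 3.03 and 2.21 in TBI+MT and 1.19 and 1.21 in TBI+CB. The difference was 1.11 (SE 0.66) and stayed between 0.89 and 1.34 with samples left out; TBI was at 1.98 and 0.479, and 2 of the 4 TBI+CB arrays were above background. Hsd11b1, the 11β-hydroxysteroid dehydrogenase that regenerates active glucocorticoid and the enzyme that carbenoxolone inhibits, was at 2.84 and 10.96 in TBI+MT and 8.23 and 6.41 in TBI+CB. The values of the drugs overlapped, with a difference of -0.38 (SE 0.88), where TBI was at 13.4 and 45.7 and sham at 5.48 and 13.4. The mineralocorticoid receptor Nr3c2 was at 40.6 and 97.6 against 74.9 and 72.8. The receptor chaperone Fkbp4 differed by -0.52, the steroid 21-hydroxylase Cyp21a1 by 0.32, Esr1 and Esr2, the estrogen receptors, by -0.66 and -0.30, and the progesterone receptor Pgr by -0.66, none with arrays apart. Tspo, a mitochondrial protein of steroid-producing cells, was not above background in either drug group. Hsd11b2, Cyp11a1, Cyp11b1, the enzyme that metyrapone blocks, and Akr1c14 had a probe that was not kept.

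The gap junction genes, listed because carbenoxolone closes these channels, were all lower in TBI+MT (7 of 7, where 69.4% of all genes were lower). Arrays were apart in 1 of the 7, a share no higher than the 14.3% of all genes. This was Gjb6, connexin 30, at 7.66 and 10.4 against 15.0 and 14.0, which is also an astrocyte gene. Gja1, connexin 43, was at 11.9 and 32.7 against 34.5 and 41.9. The list median lay 0.19 below that of all probes. Of 16 cytochrome P450 genes 1 had arrays apart, and their median was 0.08 above that of all probes.

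The 24 single genes with the smallest p among those with arrays apart were led by Bcl11b, a zinc finger factor of cortical and hippocampal projection neurons. It was at 5.66 and 6.26 in TBI+MT, whereas the TBI+CB arrays were all at background, with values of 0.1 and 0.441. TBI+MT was at least 5.76-fold higher (adjusted p = 0.468 by limma, which rests on values at background and at the floor). TBI was at 2.26 and 0.494 and sham at 4.15 and 2.66. At 24 h, in other animals, Bcl11b was at 5.30 and 6.72 in TBI+MT against 1.22 and 0.914 in TBI+CB.

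Of the 12 genes on the higher side, 8 were at background on every TBI+CB array, so their folds are bounds. Pde1a, a calmodulin-dependent phosphodiesterase, was at 7.07 and 3.06 against 0.555 and 0.698, at least 4.50-fold. Igfbpl1 was at least 3.79-fold higher, with 8.03 and 1.91 in TBI+MT. Ing3, a subunit of a histone acetyltransferase complex, was at least 3.22-fold higher and Abhd18 at least 1.85-fold. The pre-mRNA cleavage factor Cpsf6 was at least 1.53-fold higher, but its second probe differed by -0.42. Rasa1, a GTPase activator of Ras, was at least 1.22-fold higher, and Ccnl1, a cyclin linked to splicing, gave no bound above 1. Adam8, a metalloprotease, was at 3.96 and 3.15 against 0.468 and 0.857. Lin7a, a scaffold of synaptic junctions, was at 27.3 and 11.1 against 4.52 and 1.52. Phc3, a Polycomb protein, was at 12.1 and 15.1 against 1.80 and 4.43, and Tm6sf2, a protein of lipid export, at 5.84 and 5.10 against 1.88 and 1.24. The TBI+CB samples were the lower ones for all of these by construction of the rule.

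On the lower side Car5b, a mitochondrial carbonic anhydrase, was at background in TBI+MT and at 3.09 and 1.53 in TBI+CB, at least 3.65-fold (adjusted p = 0.658 by limma). Tnc, the matrix protein tenascin-C, was at background in TBI+MT and at 2.88 and 2.30 in TBI+CB, at least 4.42-fold. Fkbp14, a prolyl isomerase of the endoplasmic reticulum, was at 0.209 and 0.464 against 5.20 and 8.30. Cxcl9, a chemokine induced by interferon, was at 0.635 and 1.98 against 8.42 and 8.33. Mfsd2a, the lipid transporter of brain endothelium, was at 0.336 and 0.732 against 2.22 and 2.11. Pdgfrb, the receptor that defines pericytes, was at 0.432 and 0.344 against 1.99 and 1.51. Another vessel marker, Myh11, was apart on the higher side and is given with the markers of other cells. The transcription factor Wt1 was at 0.425 and 0.671 against 4.71 and 2.31. Dhx57, a putative helicase, was at 0.704 and 0.443 against 4.72 and 4.27, and Sft2d3 at 0.255 and 0.892 against 2.37 and 1.95. Drc3, Mxra7 and Rap2c, a small GTPase, were above background on all 8 arrays, with differences of -1.22, -1.49 and -1.45, although the second Rap2c probe differed by 0.31.

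**Figure D3:**
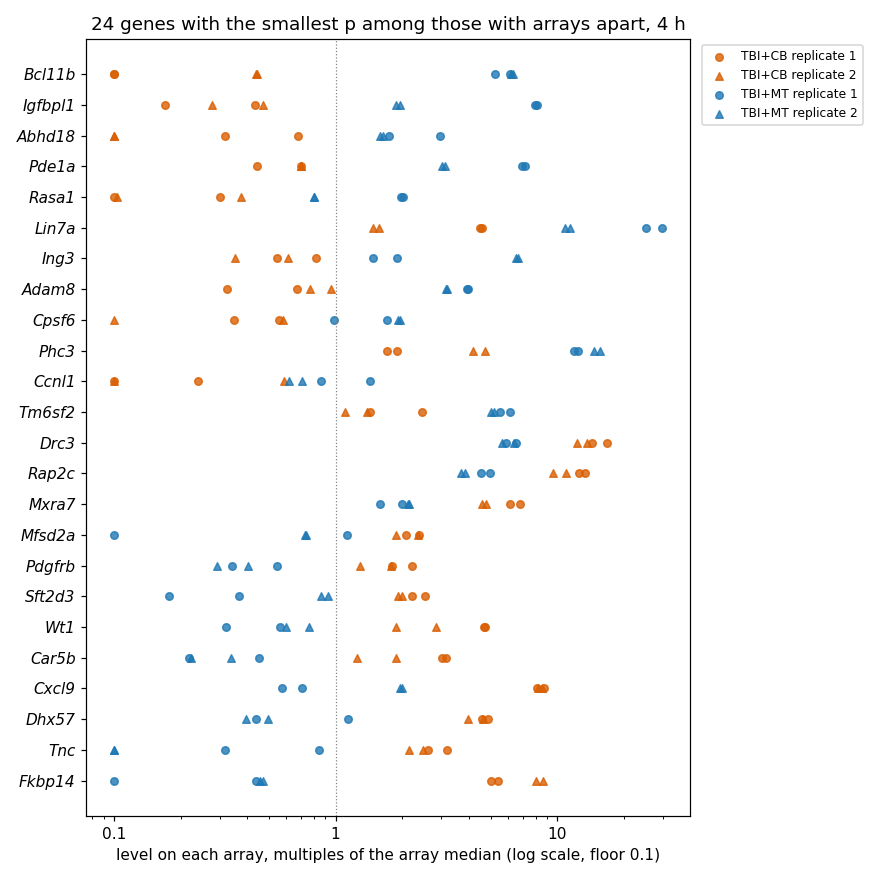
Levels on each of the 8 arrays (log axis, multiples of the array median, values under 0.1 drawn at 0.1) for the 24 genes with the smallest p among those with arrays apart. Circles are first and triangles second replicates, with 2 arrays each. Most TBI+CB points of the upper 12 genes and most TBI+MT points of the lower ones lie near or below the array median.

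Mitochondrial and ribosomal genes were mostly below TBI+CB in TBI+MT, as were 69.4% of all genes (14.3% with arrays apart). Fewer were lower when the first TBI+MT sample was left out, as over all genes, where the share fell to 45.4%. Of 25 complex I genes 21 were lower, 9 with arrays apart and 0 over 2-fold apart, with Ndufa6 at 125 and 107 against 220 and 229 and Ndufb2 at 5.12 and 5.20 against 9.60 and 10.52. Complex IV (13 of 15 lower), ATP synthase (11 of 12) and complexes II and III (9 of 11) had medians 0.37, 0.12 and 0.18 below that of all probes. Without the first TBI+MT sample, 15 of the complex I genes were lower, with 11 apart on the lower side and 7 on the higher. Of all 8291 genes 2293 were then apart on the lower side and 2854 on the higher. Complex IV then had 8 of 15 lower, ATP synthase 5 of 12 and complexes II and III 5 of 11. With 1 sample left out the ATP synthase median relative to all probes ran from -0.52 to 0.12, and that of complexes II and III from -0.26 to 0.039. The medians of complex I (-0.42 to -0.22) and complex IV (-0.65 to -0.10) stayed below that of all probes. Cox6c, a complex IV subunit, was at 4.74 and 12.3 against 22.5 and 20.7. Of 41 ribosomal protein genes 34 were lower, 19 with arrays apart. Without the first TBI+MT sample 27 were lower, with 24 apart on the lower side and 9 on the higher. The ribosomal median relative to all probes stayed between -0.36 and -0.26 with 1 sample left out. Rpsa went the other way, at 2.97 and 2.01 in TBI+MT with TBI+CB at background. Near-identical copies of ribosomal protein genes may share these probes.

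Antioxidant genes of the NRF2 pathway were lower in 20 of 21, 7 with arrays apart, against 69.4 and 14.3% of all genes. Without the first TBI+MT sample 9 of the 21 were lower, against 45.4% of all genes. Of the 21, 7 were then apart on the lower side and 6 on the higher, against 2293 and 2854 of all 8291 genes. With 1 sample left out the antioxidant median relative to all probes ran from -0.71 to 0.073. Srxn1, sulfiredoxin, was at 1.38 and 3.80 against 4.96 and 5.66, and Txnrd2, a mitochondrial thioredoxin reductase, at 0.553 and 1.25 against 2.22 and 2.07. Of 13 heat shock genes 8 were lower (5 without the first TBI+MT sample), and their median relative to all probes ran from -0.61 to 0.37 with 1 sample left out, with Bag3, a co-chaperone induced by stress, at 1.75 and 7.66 against 9.61 and 16.3. Unfolded protein response genes were lower in 16 of 19 (12 without the first TBI+MT sample), 6 with arrays apart, among them the co-chaperone Dnajc3 at 8.29 and 8.94 against 14.3 and 18.4 and the calcium-binding chaperone Calr at 20.7 and 29.3 against 37.6 and 42.3. MAP kinase feedback regulators had 5 of 14 apart on the lower side, including Dusp5 at 10.1 and 12.02 against 19.6 and 16.6 and Dusp7 at 14.1 and 9.25 against 31.9 and 19.2. Calmodulin and CaM kinase genes had 6 of 18 apart and lower, whereas without the first TBI+MT sample 9 were apart and lower and 7 apart and higher. Of all 8291 genes 2293 were then apart and lower and 2854 apart and higher. The calmodulin list includes Calm3 at 146 and 140 against 366 and 271.

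The medians of the other lists lay from 0.18 below to 0.22 above that of all probes. Hypoxia response genes (-0.17) had 5 of 14 apart and lower, clock genes (-0.18) 4 of 13 and p53 targets (-0.17) 2 of 12. Cyclic AMP, protein kinase A and CREB genes (-0.16) had 6 of 18 apart and lower and 1 apart and higher. Of all genes 14.3% were apart and lower. Without the first TBI+MT sample these lists had, in this order, 5, 6, 5 and 7 apart and lower. Apart and higher were then 5, 2, 3 and 8. Over all 8291 genes, 2293 were then apart and lower and 2854 apart and higher. Sodium and calcium channels (0.22) and synaptic vesicle and SNARE genes (0.18) had the highest medians relative to all probes, with Cplx2, a complexin, at 87.3 and 51.8 against 31.1 and 33.2, and Vamp2, a synaptobrevin, at 6.33 and 4.26 against 12.1 and 7.20. The inflammatory list lay at -0.03, with the chemokine Cxcl1 at 1.32 and 6.21 against 7.76 and 7.72. BCL2 family and caspase genes lay at 0.04, and their member Birc5, survivin, was at 1.70 and 1.77 in TBI+MT with TBI+CB at background (at least 1.68-fold higher). Among neuropeptides Pdyn, prodynorphin, was at 6.49 and 18.8 against 0.672 and 3.19, and Vip, vasoactive intestinal peptide, at 6.76 and 6.83 against 2.87 and 2.13. Sst, somatostatin, was at 0.336 and 0.728 against 0.967 and 1.19. Cholesterol synthesis genes lay at 0.02. The clock gene Per2 was at 18.7 and 35.5 against 46.2 and 42.2, and Bhlhe40, a light-responsive member of the clock, at 4.01 and 2.55 against 5.54 and 6.30.

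**Figure D4:**
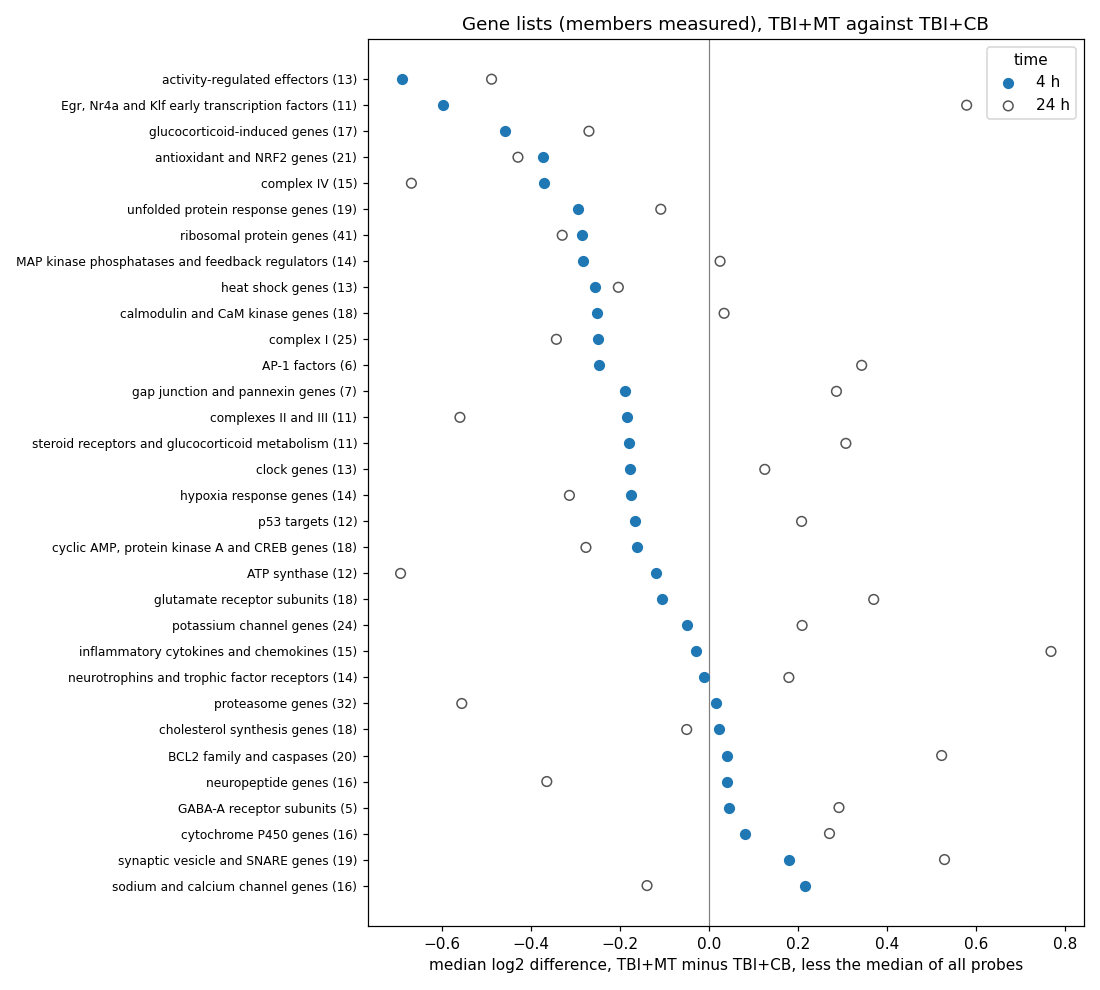
Median log2 difference of TBI+MT and TBI+CB in each of the 32 gene lists, less the median of all probes, at 4 h (filled) and 24 h (open), with the number of measured members in brackets. At 4 h the activity-regulated effectors are lowest at -0.69 and the sodium and calcium channels highest at 0.22; at 24 h the Egr, Nr4a and Klf list is at 0.58.

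Markers of the captured cell type were present in every drug sample. The pyramidal markers Grik4, the kainate receptor subunit enriched in CA3, Chgb and Tyro3 were above background on all 8 arrays. Their list of 9 lay 0.01 above all probes in the comparison, and its summed level was 397 and 644 in TBI+MT and 558 and 557 in TBI+CB. Markers of other cells were measured too, and their counts of lower members stand beside 69.4% of all genes lower in TBI+MT. Interneuron markers, 7 of 10 lower in TBI+MT, summed to 154 and 238 against 294 and 255, with Pvalb at 4.23 and 6.16 against 10.53 and 7.55. Vip, of the same list, went the other way with arrays apart, by a difference of 1.46. Oligodendrocyte markers (7 of 10 lower) summed to 192 and 188 against 280 and 237, microglia and macrophage markers (7 of 10) to 41.6 and 40.7 against 38.1 and 55.9, endothelial and pericyte markers (9 of 14) to 48.8 and 53.4 against 67.0 and 57.5, and blood cell markers (3 of 4) to 6.82 and 7.85 against 14.8 and 10.03. Laptm5, a lysosomal protein of microglia, was at 2.06 and 3.20 against 8.201 and 6.62. Other markers of these lists went the other way or overlapped, and are named after their values were seen. The monocyte and microglia receptor Cd14 was at 5.67 and 7.67 against 3.99 and 4.39, with arrays apart. The microglial receptor Csf1r was at 14.0 and 16.4 against 7.54 and 19.1, which overlap. Among vessel markers, the smooth muscle myosin Myh11 was at 5.53 and 5.69 against 0.376 and 2.81, with arrays apart. The endothelial receptor Tie1 was at 2.07 and 2.51 against 3.76 and 0.177, which overlap. Markers of granule and CA1 neurons (5 of 6 lower) summed to 38.2 and 33.4 against 42.0 and 27.999, and those of ependyma and choroid plexus (2 of 5 lower) to 70.8 and 48.8 against 67.4 and 43.8. Ttr, transthyretin of the choroid plexus, was at background in TBI+MT and at 3.97 and 3.23 in TBI+CB, at least 6.15-fold, while 1 of the TBI samples was at 144 and the other at 0.190. Whether other cells have a part in the differences above was not tested.

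The same drugs were compared at 24 h in other animals, whose slides belong to a separate run of slide numbers. Of each drug 1 sample was dim there. The first TBI+MT sample had 29.1 and 26.2% of probes above background, against 49.7 and 42.1% in the second. The second TBI+CB sample had 30.1 and 30.3%, against 58.6 and 57.5% in the first. The difference between the drugs at 4 h less that at 24 h was not past the threshold for any of 17591 probes (0%, limma), with 440 at an unadjusted p under 0.05 and a smallest adjusted p of 0.997. The early transcription factors, with a median 0.52 below all probes at 4 h, lay 0.45 above them at 24 h, and 8 of 17 were lower in TBI+MT there. Fos was at 1.58 and 2.80 in TBI+MT and 2.65 and 1.34 in TBI+CB at 24 h, and the values overlapped. Egr1 was at 5.75 and 54.2 against 79.4 and 40.2. The change of the Fos difference between times was -2.54 (SE 1.48) and that of Egr1 0.51 (SE 1.38), neither past the threshold (adjusted p = 0.997 and above, limma). The effectors remained below all probes at 24 h, by 0.49, with 9 of 13 lower in TBI+MT, a share near that of all genes. This was not particular to them. Medians relative to all probes were lower still for ATP synthase (-0.69), complex IV (-0.67), complexes II and III (-0.56) and proteasome genes (-0.55) at 24 h. Of the 24 single genes, 9 of the 12 higher at 4 h were also higher at 24 h and 10 of the 12 lower ones also lower, where 67.9% of all genes were lower at 24 h. Over all probes, the sign was the same at both times for 57.7%.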

How the data were processed

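The authors scanned CodeLink rat whole genome arrays and deposited the spot intensity of each array as the CodeLink software gave it, and GEO's value table holds the same intensities divided by the array median, linear and not centred. Values below 0 occur in the deposited intensities, so some local background had presumably been taken off. The software also gives a score per spot, the deposited signal strength, and a spot with a score above 1 was counted as above background. Each intensity was divided by the array median of its file header, set to at least 0.1 and taken to log2; masked and irregular spots were left out and duplicate arrays averaged. The 16 pooled samples were fitted with limma 3.58.1 under R 4.3.3 in 8 groups (8 residual and 3.88 prior degrees of freedom), with Benjamini-Hochberg adjustment over the kept probes and a threshold of 0.05. The step was tested on simulated data. "Arrays apart" means that all 4 arrays of 1 drug lie above all 4 of the other. A probe at background on every array of a group gives only a bound of the fold, set against the lowest signal above background on each of those arrays.

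Of 33849 probes 17035 carry 1 gene symbol (16834 updated through the RefSeq table), and a gene with several is shown by its brightest probe. Genes named are the 12 on each side with the smallest p among those with arrays apart, predicted genes left out, every measured AP-1, Egr, Nr4a, Klf and steroid gene, up to 3 members of the other lists with the smallest p, and the brightest markers, except 3 genes not reported here. Members and lists, 32 of pathways and 9 of cell markers, were chosen with earlier results of these data known.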

Additional observations from a re-analysis of the deposited data

Results flagged for a closer look

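Vip, vasoactive intestinal peptide, is listed because every sample of TBI+MT lay above every sample of TBI+CB at 4 h (6.76 and 6.83 against 2.87 and 2.13) and below at 24 h (2.15 and 3.05 against 5.02 and 7.52). The difference between the drugs at 4 h less that at 24 h was 2.72 (SE 1.10) on the log2 scale, and it did not pass the threshold (adjusted p of 0.9997 by limma over all probes). Groups of 2 samples are too small to look for a single sample that stands apart within a group.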

How the results depend on the processing

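No probe was called under the alternatives of scaling, floor, filter, groups in the fit or samples left out, nor with a replicate block, which gave 0 calls for the drugs and 0 for the difference between times; array b alone called 1 unnamed probe. The replicate numbers were not treated as pairs, since deviations of same-numbered samples of the 2 drugs correlated at 0.20 and those over all pairs of groups at -0.57 to 0.56. With 1 sample left out at a time, fewer arrays had to be apart, and the probes over 2-fold apart were 1307 to 2058 higher and 764 to 3696 lower, the largest counts being those without the first and the second TBI+MT sample, respectively. They were 235 higher and 300 lower among probes above background on all 8 arrays, 185 and 155 with the replicate filter of the methods, and 1184 lower without a filter. The early transcription factor median, less that of all probes, was -0.27 with that replicate filter and -0.62 to -0.35 with 1 sample left out; the cause was not tested. Of the astrocyte markers 6 were lower with arrays apart, and 7 to 10 with 1 sample left out, an alternative chosen after seeing the data. Over all 8291 genes this count was 1188, and 1912 to 4251 with 1 sample left out. Of 91 genes followed, 80 kept their direction, but many of them were named for having arrays apart or a small p. A gene with arrays apart cannot change direction when a sample or a duplicate array is left out. The count of 80 is thus no measure of stability. The 11 that reversed were all early transcription factor or steroid genes, which were named whatever their p. Jun became 0.059 on array a alone, Nr4a2 0.48 as the mean of its probes, and Nr3c2 0.072 after quantile normalization. With 1 sample left out Jun ran from -0.54 to 0.36, Fosl1 from -0.17 to 0.63, Junb from -0.74 to 0.018, Klf4 from -0.058 to 2.52, Srf from -0.35 to 0.72, Ier2 from -0.97 to 0.34, Ier5 from -1.87 to 0.19, Hsd11b1 from -1.36 to 0.59, Nr3c2 from -0.86 to 0.40 and Cyp21a1 from -0.30 to 0.94. Background correction by normexp was not run, because it needs a mean and a background value for each spot and the deposited intensity is a single value. Signal over background limits the dim genes: many folds are bounds.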
